A study of Mus musculus with 15 samples.

Results

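The circadian clock genes described here are 10 transcripts of the molecular clock measured by RNA-seq in the hippocampus of old mice. They were chosen by symbol: the activators Arntl, Clock and Npas2, the repressors Per1, Per2, Per3, Nr1d1, Nr1d2 and Ciart, and the output gene Dbp. The symbols were matched to the gene identifiers of 55401 annotated genes, of which 19536 had enough reads to be tested, and all 10 clock genes were among those tested. Their read counts ran from 175 for Ciart to 4592 for Per1 in a single mouse.

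The samples were 15 hippocampi from female mice, each deposited as its own sample, in a design of genotype by treatment. The study's methods give an age of 18 to 20 months without saying whether at the start or at collection. Its discussion names a higher age for the mice. Treated mice of the study also went through fear conditioning and a water maze. Whether the sequenced mice were among them is not given in the sources used here. Tg2576 mice (Tg2576 +/+ in the labels) carry human amyloid precursor protein with the Swedish familial Alzheimer mutation, expressed from the prion promoter, and their negative littermates (Tg2576 -/-) are called wild type (WT) here. For 5 weeks, mice of both genotypes received docosahexaenoic acid (DHA, an omega-3 fatty acid) at 450 mg/kg by daily intragastric administration, or the sesame oil that carried it. Each group had 4 mice, except Tg2576 DHA, which had 3. The tissue was whole hippocampus, so fewer cells of a type and less RNA per cell cannot be told apart. All animals lived on a 12 h light and dark cycle, and the hour at which each hippocampus was taken is not given in the sources used here, so hour of collection cannot be separated from differences between mice or groups.

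In mammalian cells ARNTL (BMAL1) pairs with CLOCK, or with its close relative NPAS2, and the pair activates transcription from short DNA elements called E-boxes. Among its targets are the Period genes, whose proteins, with the cryptochromes, repress the activators, and Nr1d1 and Nr1d2, which encode the nuclear receptors REV-ERBα and REV-ERBβ that repress Arntl. Arntl RNA therefore peaks at nearly the opposite time of day to the RNA of the Nr1d genes, Dbp, Per3 and Ciart in most tissues. Npas2 is abundant in the forebrain, and the hippocampus has a rhythm of these genes that follows the master clock in the suprachiasmatic nucleus of the hypothalamus.

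Promoter sequences place these elements relative to the genes whose values follow. RefSeq windows of 250 bases before to 50 bases after each annotated start (build GRCm38.p6) were found for 9 of the 10 genes, in 13 windows. The windows were searched on both strands for 5 sets of letters: the E-box CACGTG, its variant CACGTT, the D-box TTANGTAA to which DBP binds, the core TAGGTCA read by REV-ERB receptors, and the cAMP response element TGACGTCA. CACGTG was found in windows of Ciart and Per1 and occurs in 7.15% of all 32851 windows. CACGTT was found for Nr1d1 (4.68% of all windows), TTANGTAA for Per3 (2.32%), TAGGTCA for the second start of Arntl, 30 bases past it (2.61%), and TGACGTCA for none of the 9 (1.79%). A match is a run of letters and not a measured binding site. The 250 bases before the start are given 5′ to 3′ for the 4 genes with a match there and for Npas2, which carried the clearest difference between groups and has no match in its window. Capitals mark the matched letters, which for Nr1d1 are the variant read on the other strand.
Ciart (chr3:95882229-95882478, minus strand, 3 E-boxes): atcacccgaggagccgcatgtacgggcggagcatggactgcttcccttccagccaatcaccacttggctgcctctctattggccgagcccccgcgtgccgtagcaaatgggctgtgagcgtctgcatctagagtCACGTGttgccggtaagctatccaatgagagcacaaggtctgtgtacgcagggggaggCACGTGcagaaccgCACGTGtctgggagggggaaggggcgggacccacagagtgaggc
Per1 (chr11:69098699-69098948, plus strand, 1 E-box): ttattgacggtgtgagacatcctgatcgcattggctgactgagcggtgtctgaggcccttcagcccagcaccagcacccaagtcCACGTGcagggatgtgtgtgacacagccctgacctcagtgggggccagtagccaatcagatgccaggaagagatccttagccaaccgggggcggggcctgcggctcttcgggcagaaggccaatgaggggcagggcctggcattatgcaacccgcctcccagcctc
Per3 (chr4:151044666-151044915, minus strand, 2 D-boxes): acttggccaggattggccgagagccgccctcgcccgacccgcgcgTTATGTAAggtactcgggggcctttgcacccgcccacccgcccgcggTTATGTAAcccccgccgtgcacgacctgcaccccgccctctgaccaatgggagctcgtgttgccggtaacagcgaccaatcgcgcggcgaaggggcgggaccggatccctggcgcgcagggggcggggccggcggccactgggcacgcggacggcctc
Nr1d1 (chr11:98775378-98775627, minus strand, 1 variant E-box): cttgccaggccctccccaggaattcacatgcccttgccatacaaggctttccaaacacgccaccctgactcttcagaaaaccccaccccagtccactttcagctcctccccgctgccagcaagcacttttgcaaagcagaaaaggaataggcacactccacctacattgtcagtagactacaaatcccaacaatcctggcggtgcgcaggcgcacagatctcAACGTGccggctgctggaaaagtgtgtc
Npas2 (chr1:39194022-39194271, plus strand, no match): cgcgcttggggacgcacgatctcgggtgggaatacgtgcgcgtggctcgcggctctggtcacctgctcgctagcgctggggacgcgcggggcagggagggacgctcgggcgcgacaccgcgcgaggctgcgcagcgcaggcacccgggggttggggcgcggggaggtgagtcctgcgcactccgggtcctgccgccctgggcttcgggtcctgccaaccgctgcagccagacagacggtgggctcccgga
The 3 E-boxes of Ciart begin 116, 58 and 44 bases before its start, the E-box of Per1 begins 166 bases before its first start, and the D-boxes of Per3 begin 205 and 158 bases before its start.

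Libraries held 17372864 to 46596489 reads assigned to genes, with a median of 25645977, and no pair of libraries was identical. Levels are given as counts scaled to CPM, the usual depth-corrected unit of assigned reads, after TMM scaling, a correction for library composition whose factors ran from 0.961 to 1.03. Markers of hippocampal principal neurons summed to 1228 to 1695 CPM in every mouse. Markers of the suprachiasmatic nucleus were at or near 0, with Six6 and Nms at 0 in most mice and Avp between 0.0591 and 0.520 CPM; Vip, which hippocampal interneurons also express, was at 14.4 to 24.2 CPM. Choroid plexus markers varied most, from 61.7 to 5847 CPM in sum, and ranged over 89.5 to 3737 CPM in WT vehicle and 61.7 to 5847 CPM in WT DHA mice, and over 142 to 3181 CPM and 3120 to 5170 CPM in the Tg2576 mice on vehicle and DHA.

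Per kilobase of exon, Nr1d1, Per1, Dbp and Nr1d2 were more abundant than the other 6 genes. Nr1d1 had the highest mean level over the 15 mice, at 27.7 CPM per kb, followed by Per1 at 20.3, Dbp at 14.5 and Nr1d2 at 12.6 CPM per kb. Per2 (7.95 CPM per kb), Npas2 (7.50) and Per3 (6.95) lay close together, and Clock (5.43), Ciart (5.26) and Arntl (4.36) were lowest. The distance between the highest and the lowest mouse differed between genes: it was 1.34-fold for Arntl and 2.53-fold for Per2.

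Arntl encodes the activator without which the loop does not run. Arntl (ENSMUSG00000055116.8, chr7:113207465-113314126, plus strand) was at 34.3, 33.8, 32.1 and 32.7 CPM in WT vehicle mice 1 to 4 and at 35.5, 29.1, 31.1 and 29.7 CPM in WT DHA mice 1 to 4. In Tg2576 vehicle mice 1 to 4 it was at 34.3, 38.8, 30.7 and 35.6 CPM, and in Tg2576 DHA mice 1 to 3 at 36.2, 29.1 and 29.5 CPM. The groups overlapped in every comparison and the highest value of all was that of Tg2576 vehicle mouse 2. The fitted log2 difference between DHA and vehicle was -0.08 in WT (95% interval -0.29 to 0.12) and -0.14 in Tg2576 mice (-0.37 to 0.08).

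Clock, the partner of ARNTL, is a long transcript (ENSMUSG00000029238.11, chr5:76209868-76304792, minus strand). It was at 90.4, 93.4, 64.2 and 79.3 CPM in WT vehicle and at 68.6, 79.4, 67.7 and 57.6 CPM in WT DHA mice. The Tg2576 vehicle mice had 75.4, 76.4, 66.1 and 62.0 CPM and the Tg2576 DHA mice 57.7, 89.4 and 91.2 CPM. Values spread widely within each group, and no group stood apart. The log2 difference between DHA and vehicle was -0.26 in WT (SE 0.146, 95% interval -0.57 to 0.05) and 0.18 in Tg2576 mice (SE 0.158, interval -0.15 to 0.52). The difference between these differences was 0.44 (SE 0.215, adjusted p = 0.845 by edgeR's quasi-likelihood test) and was not called at the unadjusted p under 0.01 that the study used. Without Tg2576 DHA mouse 1, the lowest of its group, it was 0.62 and was called (adjusted p = 0.364 by edgeR), so 1 mouse decided the call.

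Npas2, which can take the place of CLOCK in the forebrain, was the clock gene that differed most between groups. Npas2 (ENSMUSG00000026077.15, chr1:39193731-39363236, plus strand) was at 32.9, 29.9, 31.4 and 29.1 CPM in WT vehicle mice and at 40.5, 48.6, 45.9 and 41.0 CPM in WT DHA mice. It was at 33.5, 37.0, 29.1 and 37.4 CPM in Tg2576 vehicle mice and at 33.5, 37.5 and 31.8 CPM in Tg2576 DHA mice. All 4 WT DHA mice lay above the other 11, which formed a single range from 29.1 to 37.5 CPM. The group means were 30.8 ± 1.65 CPM in WT vehicle, 44.0 ± 3.92 CPM in WT DHA, 34.2 ± 3.86 CPM in Tg2576 vehicle (SD, n = 4 each) and 34.3 ± 2.95 CPM in Tg2576 DHA mice (SD, n = 3).

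**Figure D1:**
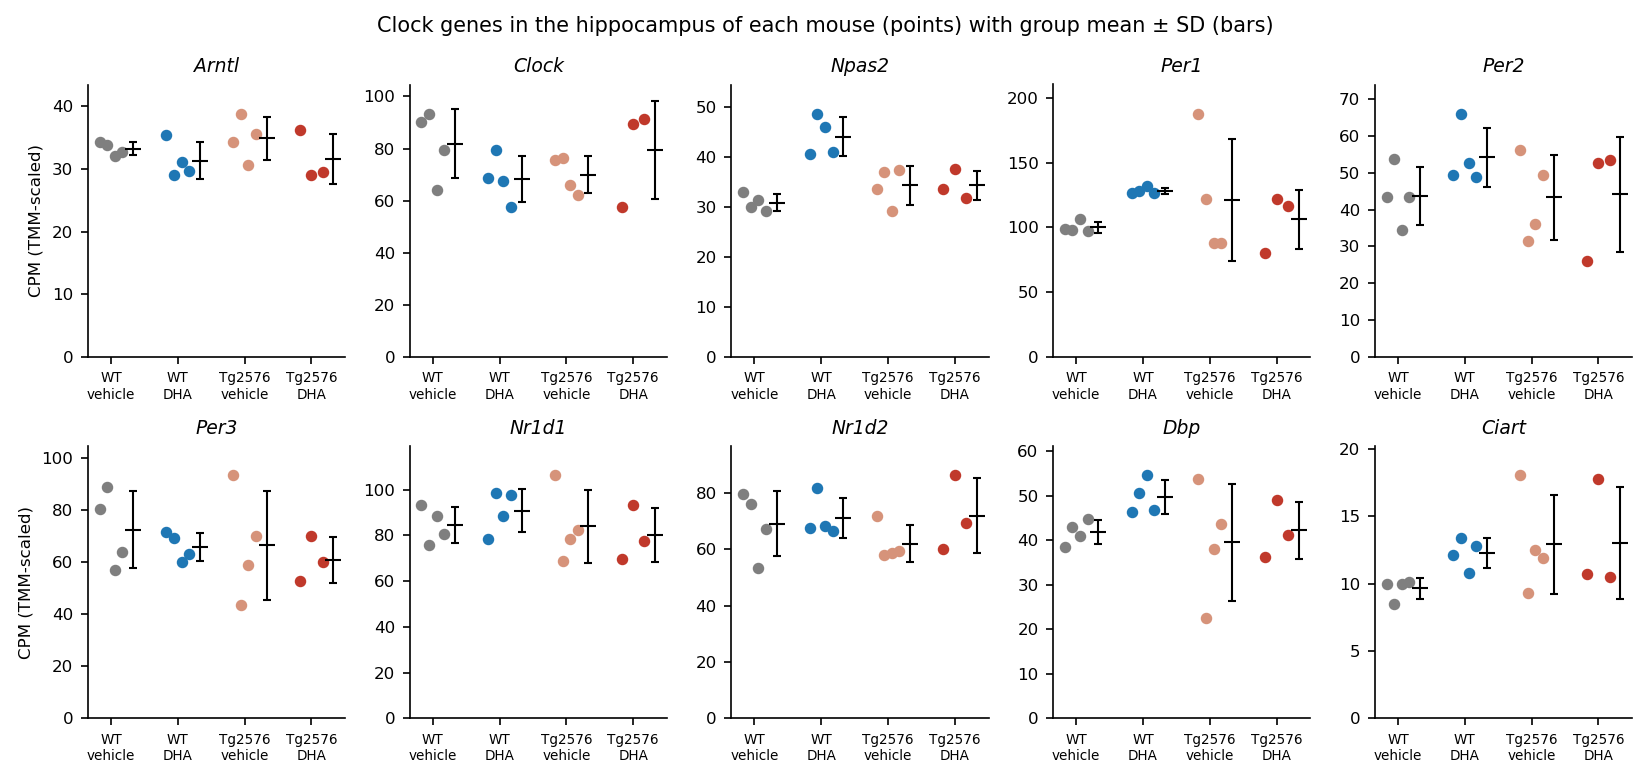
Level of each of the 10 clock genes in every mouse, in CPM after TMM scaling on a linear axis from 0, with 1 panel per gene and 1 column per group; points are mice, and bars beside them are the group mean ± SD (n = 4, and n = 3 for Tg2576 DHA). In the Npas2 panel all 4 WT DHA mice, at 40.5 to 48.6 CPM, sit above the other 11 mice, and in the Per1 panel the Tg2576 vehicle mice spread from 87.8 to 188 CPM.

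Per1 encodes the Period protein that responds quickly to light and to stress hormones. Per1 (ENSMUSG00000020893.17, chr11:69095217-69109960, plus strand) was at 98.9, 98.2, 106 and 97.4 CPM in WT vehicle and at 127, 128, 132 and 127 CPM in WT DHA mice. The Tg2576 vehicle mice had 188, 122, 88.0 and 87.8 CPM, and the Tg2576 DHA mice 80.0, 122 and 117 CPM. Both WT groups were tight and did not overlap, whereas the Tg2576 vehicle mice ran from below both WT groups to above them and the Tg2576 DHA mice were all below the WT DHA mice. Tg2576 vehicle mouse 1 was the highest of all 15.

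Per2, a core repressor of the loop (ENSMUSG00000055866.9, chr1:91415982-91459324, minus strand), was at 43.5, 53.8, 34.4 and 43.5 CPM in WT vehicle and at 49.5, 66.1, 52.7 and 48.9 CPM in WT DHA mice. It was at 56.4, 31.4, 36.1 and 49.5 CPM in Tg2576 vehicle and at 26.1, 52.8 and 53.5 CPM in Tg2576 DHA mice. The 4 groups overlapped, with Tg2576 DHA mouse 1 lowest and WT DHA mouse 2 highest. Per3, the Period gene with a mainly modulating role (ENSMUSG00000028957.12, chr4:151003652-151044665, minus strand), had group means of 72.5 ± 14.7 CPM in WT vehicle, 65.9 ± 5.33 CPM in WT DHA, 66.4 ± 21.0 CPM in Tg2576 vehicle (SD, n = 4 each) and 60.9 ± 8.74 CPM in Tg2576 DHA mice (SD, n = 3). Its extremes both came from the Tg2576 vehicle group, with 93.4 CPM in mouse 1 and 43.4 CPM in mouse 2.

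Nr1d1, which encodes the Arntl repressor REV-ERBα (ENSMUSG00000020889.11, chr11:98767932-98775333, minus strand), was at 93.0, 75.9, 88.6 and 80.7 CPM in WT vehicle and at 78.3, 98.6, 88.5 and 97.6 CPM in WT DHA mice. The Tg2576 vehicle mice had 106, 68.8, 78.3 and 82.4 CPM and the Tg2576 DHA mice 69.6, 93.1 and 77.7 CPM. The highest and the lowest mouse were again Tg2576 vehicle mice 1 and 2. Exons of Nr1d1 share 263 bases, 8.55% of their length, with Thra on the other strand, and the counting did not use strand, so reads in that stretch cannot be told apart. Nr1d2, the gene of REV-ERBβ (ENSMUSG00000021775.11, chr14:18204054-18239127, minus strand), had group means of 69.2 ± 11.7 CPM in WT vehicle, 71.0 ± 7.11 CPM in WT DHA, 62.1 ± 6.55 CPM in Tg2576 vehicle (SD, n = 4 each) and 72.0 ± 13.2 CPM in Tg2576 DHA mice (SD, n = 3), all overlapping.

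Ciart (Chrono) encodes a repressor of the activator pair and is the gene with 3 E-boxes shown above. Ciart (ENSMUSG00000038550.10, chr3:95878503-95882251, minus strand) was at 9.99, 8.46, 9.97 and 10.1 CPM in WT vehicle and at 12.1, 13.4, 10.8 and 12.8 CPM in WT DHA mice. It was at 18.1, 9.31, 12.5 and 11.9 CPM in Tg2576 vehicle and at 10.7, 17.8 and 10.5 CPM in Tg2576 DHA mice. The WT vehicle group was the lowest of the 4 on average, and 1 mouse in each Tg2576 group stood far above the rest. Dbp encodes a transcription factor that carries the rhythm to other genes through D-boxes (ENSMUSG00000059824.12, chr7:45705088-45710203, plus strand). Dbp was at 38.4, 43.0, 41.0 and 44.7 CPM in WT vehicle, at 46.4, 50.7, 54.6 and 46.8 CPM in WT DHA, at 53.9, 22.5, 38.0 and 43.6 CPM in Tg2576 vehicle and at 36.3, 49.1 and 41.1 CPM in Tg2576 DHA mice. The WT DHA mice all exceeded the WT vehicle mice, and Tg2576 vehicle mouse 2 was far below every other animal. Dbp shares 539 of its 2993 exon bases with Sphk2 on the other strand.

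Comparison of DHA with vehicle in WT mice asked whether the supplement changed clock gene RNA in animals without the transgene. Npas2 rose 1.43-fold, a log2 difference of 0.51 (SE 0.0977, 95% interval 0.31 to 0.72) in the edgeR fit over all 15 mice. It was the only 1 of the 10 called at an unadjusted p under 0.01, where 1.38% of the 19536 genes tested were called. Its Benjamini-Hochberg adjusted p of 0.259 by edgeR was the lowest of any gene in this comparison, and no gene reached 0.05. In 25 alternative fits Npas2 was called 25 times, with adjusted p from 0.00194 (DESeq2) to 0.995, and only DESeq2 placed it under 0.05.

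The 4 genes whose WT DHA mice all lay above all WT vehicle mice were Npas2, Per1, Dbp and Ciart, and 5.02% of all genes tested had groups that did not overlap in either direction. For each of the 4 the exact permutation test (two-sided, mean log2 CPM) gave p = 0.0286, the smallest that 4 against 4 mice allow. Groups that stand fully apart give this value by construction, so it adds nothing to the separation itself. The fitted log2 differences in WT were 0.36 for Per1 (SE 0.193, interval -0.05 to 0.77), 0.35 for Ciart (SE 0.191, interval -0.05 to 0.75) and 0.25 for Dbp (SE 0.180, interval -0.13 to 0.63), none of them called (adjusted p = 0.863, 0.863 and 0.880 by edgeR). The remaining genes were at 0.31 for Per2, 0.10 for Nr1d1, 0.04 for Nr1d2, -0.08 for Arntl, -0.14 for Per3 and -0.26 for Clock. The median over the 10 was 0.18, beside -0.01 over all genes tested.

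The call for Per1 in WT mice depended on whether the Tg2576 mice shared the estimate of spread. A fit on the 8 WT mice alone called 3 clock genes, Npas2, Per1 (log2 difference 0.36, SE 0.0649, adjusted p = 0.137 by edgeR) and Dbp (0.25, SE 0.0817, adjusted p = 0.412 by edgeR), where 2.39% of 18061 genes were called. Per1 was also called without Tg2576 vehicle mouse 1 (adjusted p = 0.607 by edgeR), without Tg2576 vehicle mice 1 and 2 (adjusted p = 0.472 by edgeR) and with 1 surrogate variable (adjusted p = 0.250 by edgeR). The size of the Per1 difference was between 0.34 and 0.52 in all 25 alternatives.

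In Tg2576 mice none of the 10 genes was called between DHA and vehicle, where 0.353% of all genes were, none had an unadjusted p under 0.05, and DESeq2 and limma-voom called 0 as well. Npas2 differed by less than 0.01 on the log2 scale (95% interval -0.22 to 0.22). The largest differences were 0.22 for Nr1d2 (interval -0.08 to 0.51), -0.19 for Per1 (-0.63 to 0.25) and 0.18 for Clock (-0.15 to 0.52). For no clock gene did the 2 groups stand apart, against 3.21% of all genes.

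The difference of Npas2 between DHA and vehicle was not the same in the genotypes at the unadjusted threshold. The interaction, the log2 DHA difference in Tg2576 minus that in WT mice, was -0.51 (SE 0.144, 95% interval -0.82 to -0.21, adjusted p = 0.845 by edgeR), and Npas2 was the single clock gene called where 0.829% of all genes were. It remained called in each of 24 alternatives, with adjusted p from 0.284 to 0.993. Per1 had an interaction of similar size but larger error, -0.55 (SE 0.285, interval -1.15 to 0.06). In the test for any difference among the 4 groups Npas2 alone was called (adjusted p = 0.222 by edgeR), where 2.36% of all genes were. This test and the interaction use the same WT DHA mice as the comparison within WT. Their calls are therefore not independent of it and add no separate support.

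**Figure D2:**
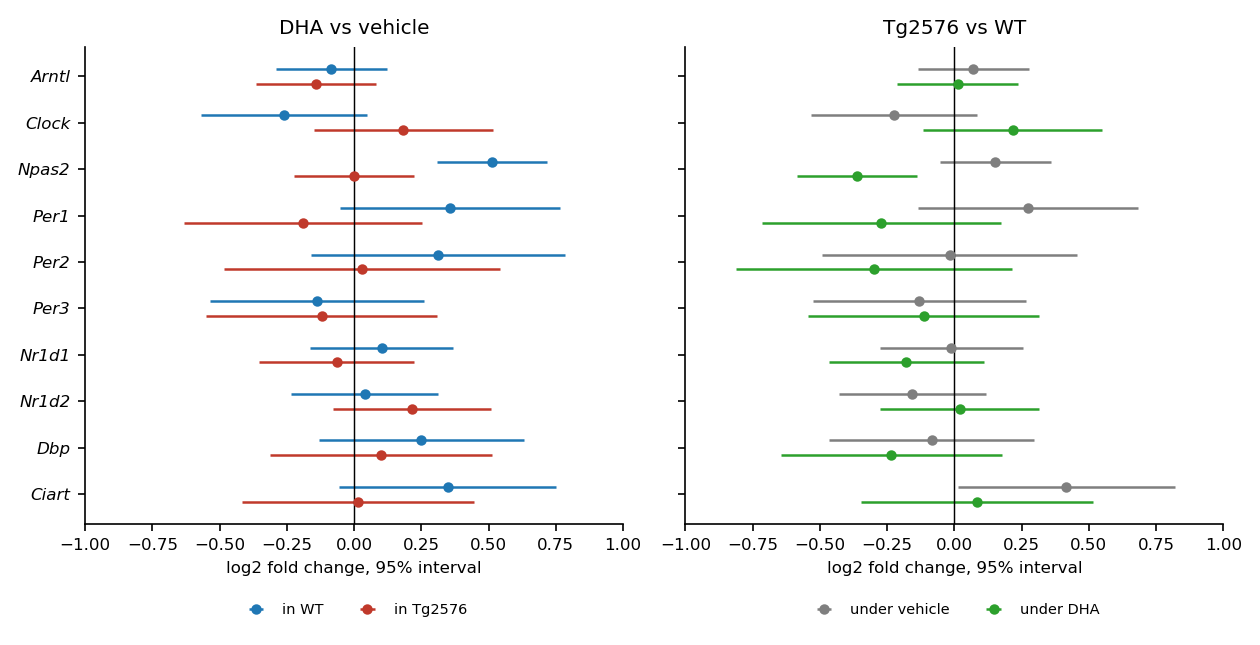
Fitted log2 fold change of each clock gene (x axis) with its 95% interval from edgeR; the left panel compares DHA with vehicle in WT and in Tg2576 mice, the right panel Tg2576 with WT mice under vehicle and under DHA, and the vertical line marks no difference. The interval of Npas2 excludes 0 for DHA in WT mice (0.31 to 0.72) and for Tg2576 against WT under DHA (-0.58 to -0.14), that of Ciart excludes 0 for Tg2576 against WT under vehicle (0.01 to 0.82), and all others span 0.

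Comparison of the genotypes under vehicle, which asks what the transgene alone changes, called 0 clock genes, where 3.09% of all genes were called, and DESeq2 and limma-voom called 0 too. The lowest p was that of Ciart, with a log2 difference of 0.42 (SE 0.191, adjusted p = 0.445 by edgeR), and it was the only clock gene with an unadjusted p under 0.05; its exact permutation test gave p = 0.114. Per1 was at 0.27 (SE 0.193, interval -0.13 to 0.68), but without Tg2576 vehicle mouse 1 its difference was -0.01, so its direction rested on that mouse. Without Tg2576 vehicle mouse 2 the difference of Dbp turned from -0.08 to 0.11. Not 1 of the 10 genes had groups that stood apart, against 5.16% of all genes.

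Under DHA, Npas2 was lower in Tg2576 than in WT mice by 0.36 on the log2 scale, 0.779-fold (SE 0.106, 95% interval -0.58 to -0.14, adjusted p = 0.536 by edgeR), and was the only clock gene called, where 1.75% of all genes were. This comparison uses the same WT DHA mice as the one within WT, so the values are not independent of it. Npas2 and Per1 had all 3 Tg2576 mice below all 4 WT mice, while 8.56% of all genes had groups that did not overlap. Each had p = 0.0286 in the exact permutation test, the smallest that 3 against 4 mice allow. That p follows from the separation and adds nothing to it. The call for Npas2 was lost without WT DHA mouse 2 (log2 difference -0.31), Tg2576 DHA mouse 1 (-0.34) or Tg2576 DHA mouse 3 (-0.31). The fitted difference of Per1 was -0.27 (SE 0.209, interval -0.72 to 0.17). Clock, at 0.22, was called without Tg2576 DHA mouse 1 (0.41, adjusted p = 0.429 by edgeR).

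Of the 8 markers of hippocampal principal neurons, 2 were called with DHA in WT mice, where 1.38% of all genes were called. Npas2 was called in the same comparison. Wfs1, which marks CA1 pyramidal neurons, was at 203 to 245 CPM in WT DHA against 173 to 186 CPM in WT vehicle mice (log2 difference 0.31, SE 0.0872, called, adjusted p = 0.542 by edgeR), and it was lower in Tg2576 than in WT mice under DHA (-0.40, SE 0.0949, called, adjusted p = 0.390 by edgeR). Prox1, which marks dentate granule cells, was lower in WT DHA mice, at 60.8 to 79.0 against 75.8 to 107 CPM (-0.37, SE 0.121, called, adjusted p = 0.669 by edgeR). It was as low in Tg2576 vehicle (55.6 to 70.2 CPM) and Tg2576 DHA mice (53.1 to 72.5 CPM), where Npas2 was at 29.1 to 37.4 and 31.8 to 37.5 CPM. C1ql2, which also marks dentate granule cells, was at 57.4 to 142 CPM in WT DHA and 74.5 to 96.7 CPM in WT vehicle mice (0.14, SE 0.282, not called). The other 5 markers of the list were not called, and the sum of the list ranged over 1295 to 1695 CPM in WT vehicle, 1307 to 1678 CPM in WT DHA, 1228 to 1388 CPM in Tg2576 vehicle and 1266 to 1433 CPM in Tg2576 DHA mice. The 6 neocortical markers, none called with DHA in WT mice, summed to 174 to 205 CPM in WT vehicle and 189 to 236 CPM in WT DHA mice, and to 167 to 290 CPM and 164 to 242 CPM in the Tg2576 vehicle and DHA mice. The part of regional composition in the Npas2 difference was not tested.

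Variation among mice of the same group was wider in Tg2576 mice for most clock genes. The SD of log2 CPM around group means was 0.0457 in the 8 WT and 0.454 in the 7 Tg2576 mice for Per1, a ratio of 9.95. The ratio was 4.26 for Dbp (0.103 against 0.437), 3.20 for Ciart (0.127 against 0.408) and 2.05 for Per2 (0.235 against 0.480). It lay between 0.968, for Nr1d2, and 1.70, for Nr1d1, in the other 6 genes. Thus 9 of 10 clock genes were more variable in Tg2576 mice, with a median ratio of 1.70, beside 66.9% of all genes and a median of 1.24. Without Tg2576 vehicle mice 1 and 2, the 2 that stood at the extremes, the ratio was 5.97 for Per1, 2.77 for Ciart, 2.20 for Per2 and 1.91 for Dbp, and the median was 1.72 beside 1.10 over all genes. Per3 then turned from 1.69 to 0.873, so its wider spread in Tg2576 mice rested on those mice, and Nr1d2 moved to 1.03. Counting error alone gives an SD of 0.0265 for Per1 and 0.0866 for Ciart in WT mice, beside the WT values of 0.0457 and 0.127. These ratios are descriptions of 15 mice, and the difference in spread was not tested.

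**Figure D3:**
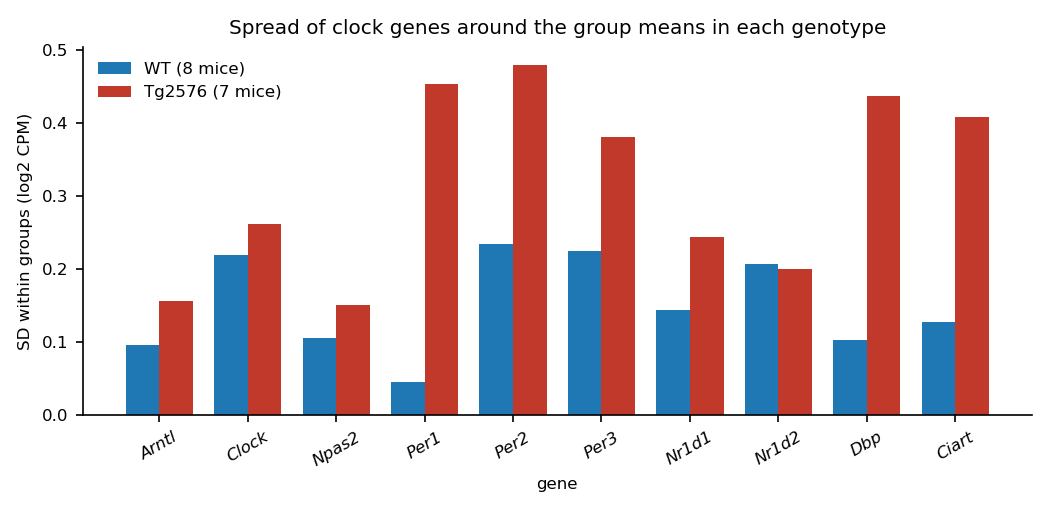
SD of log2 CPM around group means (y axis, from 0) for each clock gene, with a blue bar for the 8 WT and a red bar for the 7 Tg2576 mice. The red bar is the taller for 9 of the 10 genes, by 9.95-fold for Per1, and the exception is Nr1d2 (0.206 in WT and 0.200 in Tg2576 mice).

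In some Tg2576 mice several repressor and output genes deviated from the group mean the same way. In Tg2576 vehicle mouse 1 the mean deviation of the 7 repressor and output genes from their group means was 0.47 on the log2 scale, and 4 of the 10 clock genes (Per1, Per3, Nr1d1 and Ciart) had their highest value of all mice there. Its library was the shallowest, at 17372864 assigned reads. The share of all genes with their highest value in this mouse was not determined, so the high values are not shown to be particular to the genes named here and below. In Tg2576 vehicle mouse 2 the mean deviation was -0.35, Per3, Nr1d1 and Dbp had their lowest values, and Arntl its highest. In the Tg2576 DHA group, mouse 1 stood at -0.31 and mouse 2 at 0.29.

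**Figure D4:**
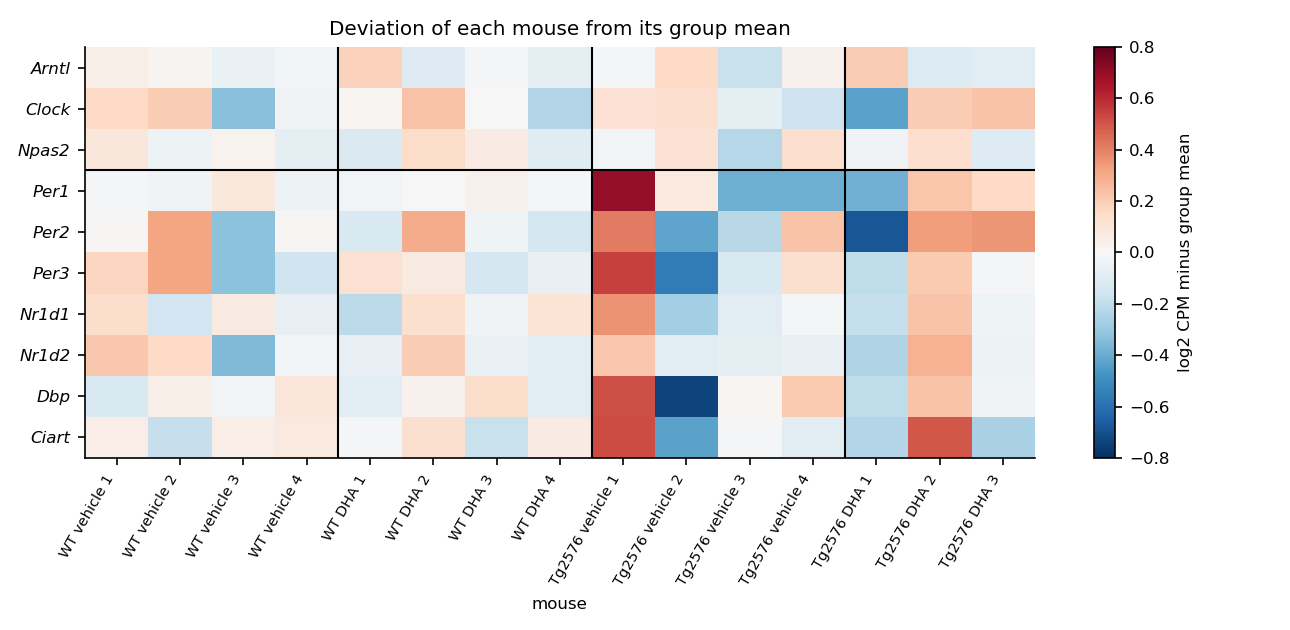
Deviation of each clock gene (rows) from its group mean in every mouse (columns), in log2 CPM, as a colour grid with red above and blue below the group mean; lines separate the 4 groups and the activators from the other genes. Tg2576 vehicle mice 1 and 2 have deviations of opposite sign in 6 of the 7 repressor and output genes, with means over the 7 of 0.47 and -0.35.

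Genes of the cryptochrome and deubiquitinase branches stood out in Tg2576 vehicle mouse 1 too, chosen here after their values were seen. Cry1, a repressor that acts with the Period proteins, was at 23.8 CPM, against 11.4 to 16.0 CPM in the other 14 mice. Cry2 was at 240 CPM against 139 to 182 CPM, and Usp2, whose product stabilises clock proteins, was at 97.0 CPM against 59.3 to 83.8 CPM. Each of these 3 genes was above every other mouse in this animal.

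Most glucocorticoid-responsive genes of the list were also high in this mouse, and Per1 is itself known to be induced by glucocorticoids. Of those given next, Fkbp5, Sgk1 and Plin4 were chosen after their values were seen. Fkbp5, a feedback regulator of the glucocorticoid receptor, was at 143 CPM against 52.5 to 80.8 CPM in the other mice, and Sgk1 at 172 CPM against 49.4 to 114 CPM. Plin4 was at 113 CPM against 5.28 to 19.1 CPM, and Cdkn1a at 47.2 CPM against 5.71 to 15.3 CPM. Zbtb16, at 77.2 CPM against 36.8 to 101 CPM, was within the range of the other mice. Among the 12 genes of this list, 3 were called higher in Tg2576 than in WT vehicle mice, where 3.09% of all genes were called: Cdkn1a (log2 difference 1.58, adjusted p = 0.208 by edgeR), Map3k6 (1.73, adjusted p = 0.318) and Mt2 (0.50, adjusted p = 0.291), with a median of 0.46 over the list beside 0.00 over all genes. Without Tg2576 vehicle mouse 1, where 4.95% of all genes were called, 1 of the 12 was called, Cdkn1a (0.77, adjusted p = 0.139 by edgeR), and the median was 0.09. Map3k6 was then at 0.64 (SE 0.359) and Mt2 at 0.41 (SE 0.169), so the calls of both rested on that mouse. The part of stress hormones in the clock gene values of this mouse was not tested.

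Relations among mice were examined after removing group means, so that they describe which genes were high or low together within groups. The 7 repressor and output genes were positively correlated in 21 of 21 pairs over the 15 mice, with Pearson's r from 0.34 (Per1 with Dbp) to 0.86 (Nr1d1 with Ciart) and a median of 0.58. Arntl was negatively correlated with all 7, from -0.56 with Nr1d1 to -0.16 with Per1, with a median of -0.45. Clock was positively correlated with all 7, with r from 0.09 (Dbp) to 0.80 (Nr1d2). Npas2 had r between -0.06 and 0.31 with the 7 genes. All values come from the same 15 libraries and share their scaling, and they are given as descriptions without a test.

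The pairs of repressor and output genes were then set out by genotype. In the 7 Tg2576 mice 21 of 21 pairs were positive, with r from 0.35 to 0.97 and a median of 0.78, led by Per3 with Dbp (0.97), Per3 with Nr1d1 (0.95) and Nr1d1 with Ciart (0.94). In the 8 WT mice 9 of 21 pairs were positive and the median was -0.05. Without Tg2576 vehicle mice 1 and 2, 21 of 21 pairs were positive over the 13 remaining mice, with a median of 0.45. Clock was positive with 7 of 7 of these genes in Tg2576 and with 4 of 7 in WT mice, where its r was -0.55 with Per1, -0.21 with Ciart and -0.17 with Nr1d1. Arntl was negative with 7 of 7 in Tg2576 and with 5 of 7 in WT mice, where its r was 0.43 with Per3 and 0.0473 with Nr1d2. The difference between genotypes in these correlations was not tested.

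**Figure D5:**
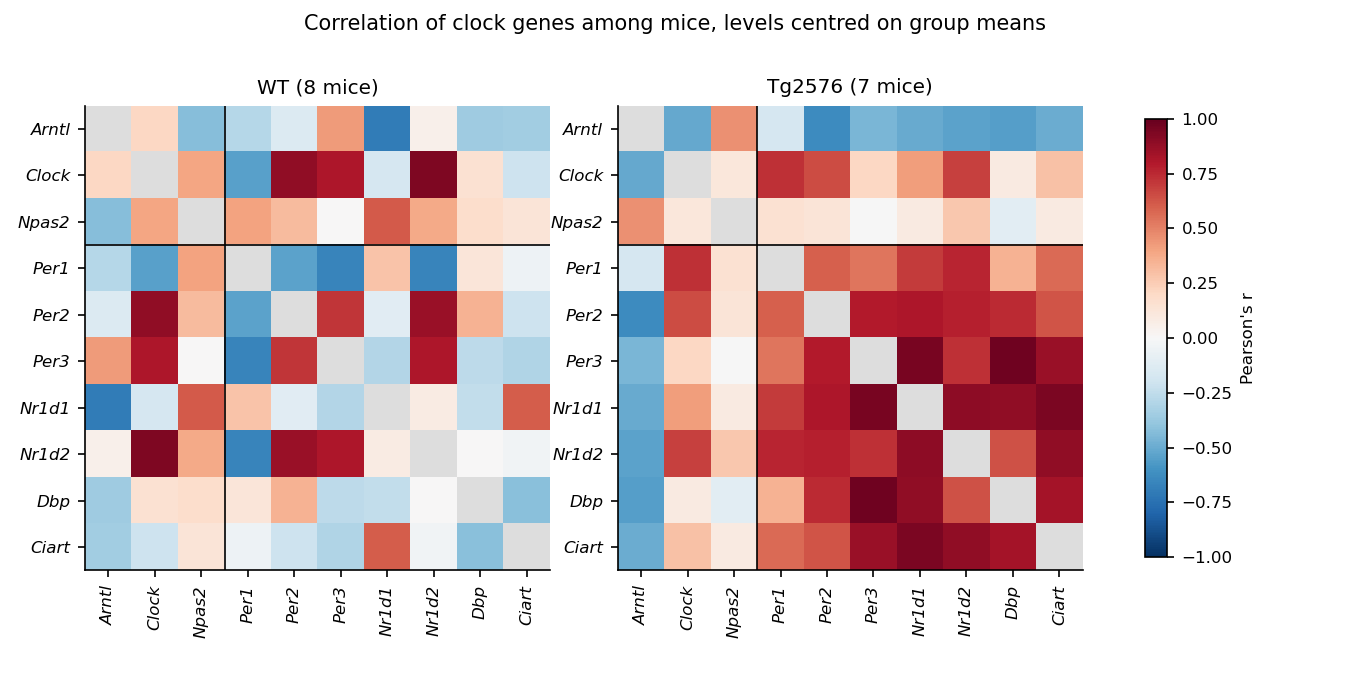
Pearson's r between each pair of the 10 clock genes after subtracting group means from log2 CPM, as colour grids for the 8 WT mice (left) and the 7 Tg2576 mice (right); red is positive, blue negative, and lines separate the activators from the repressor and output genes. The block of repressor and output genes is positive throughout in Tg2576 mice (0.35 to 0.97) and of mixed sign in WT mice (-0.66 to 0.86).

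Among Clock, Per2, Per3 and Nr1d2 all pairs were positive in both genotypes, but not equally so. Clock with Nr1d2 had r = 0.93 in WT and 0.68 in Tg2576 mice, Clock with Per2 had 0.89 and 0.65, Per2 with Nr1d2 had 0.86 and 0.78, Per3 with Nr1d2 had 0.81 and 0.73, and Per2 with Per3 had 0.72 and 0.79. Clock with Per3 had 0.81 in WT but 0.21 in Tg2576 mice. Per1 ran against this set in WT mice, with r = -0.66 with Nr1d2, -0.66 with Per3 and -0.54 with Per2, and with it in Tg2576 mice, where the values were 0.76, 0.53 and 0.60. These pairs were picked after the values were seen.

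Arntl and Dbp served as reference genes of the opposite arms, and their relations with all genes were tested by permuting the reference within groups in all 82944 arrangements (exact, two-sided). With Arntl none of the other 9 clock genes reached p under 0.01, where 0.430% of 19535 genes did. The strongest relation with Arntl was that of Nr1d1 (r = -0.56, exact p = 0.0900, rho = -0.48), and it was -0.40 without Tg2576 vehicle mouse 2 and WT DHA mouse 2, the mice farthest from the median of Arntl. Per3 with Arntl changed from -0.19 to 0.17 when the same mice were left out, so its negative sign rested on them. With Dbp 1 of 9 clock genes reached p under 0.01, where 0.660% of genes did: Per2 (r = 0.68, exact p = 0.00896, adjusted p = 0.989, rho = 0.69 with exact p = 0.0300). Per3 (r = 0.76, exact p = 0.0328), Ciart (0.73, exact p = 0.0541) and Nr1d1 (0.69, exact p = 0.0526) had larger r but did not reach it. Without the mice farthest from the median of Dbp, Tg2576 vehicle mouse 2 and WT DHA mouse 3, r was 0.74 for Per2 (exact p = 0.0386), 0.63 for Per3, 0.77 for Ciart and 0.66 for Nr1d1. No gene of the 19535 had an adjusted p under 0.05 with either reference.

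Among all tested genes with a mean of at least 1 CPM, the gene most like Arntl over the 15 mice was Timeless (r = 0.91, rho = 0.86), a gene of replication and checkpoint control with a debated role in the mammalian clock, followed by Gm42205 (0.90), Tnfrsf9 (0.89), Igfbp6 (0.83) and Wnt10a (0.83). The genes most opposite to Arntl were Celf6 (-0.87), Igsf1 (-0.86), Slfn2 (-0.86), Gm15927 (-0.85) and Irf7 (-0.83). Most like Dbp were 5530601H04Rik (r = 0.93, rho = 0.97), Kifc2 (0.91), Ly6c2 (0.89), Zfp956 (0.89) and Mgrn1 (0.88), and most opposite were Tmem51 (-0.91), Bpnt1 (-0.91), 3110056K07Rik (-0.90), AC171111.1 (-0.88) and Hist2h3c2 (-0.88). These are the extremes of 19535 correlations and none passed the adjusted threshold. The 10 clock genes were left out of this ranking beforehand.

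Further genes of the clock, 20 in a list that holds the cryptochromes, D-box factors, kinases and ubiquitin ligases, were called once in the 4 comparisons between groups. Of all genes, 3.09% and 1.75% were called between genotypes under vehicle and DHA, and 1.38% and 0.353% for DHA in WT and Tg2576 mice. Btrc, a ubiquitin ligase subunit that marks Period proteins for degradation, was lower in Tg2576 than in WT vehicle mice (log2 difference -0.37, SE 0.103, adjusted p = 0.216 by edgeR). Medians over the list lay between -0.02 and 0.03 in the 4 comparisons. Tef, which binds D-boxes as DBP does, had r = 0.79 with Dbp (exact p = 0.0186). Bhlhe40, an E-box repressor, had r = -0.67 with Arntl (exact p = 0.0468), and Nfil3, which opposes DBP at D-boxes, had r = 0.64 with Arntl (exact p = 0.0828) and -0.64 with Dbp (exact p = 0.0875).

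Output genes that cycle in many organs and temperature-responsive genes gave little difference between groups. Of the 10 output genes only Cdkn1a was called, higher in Tg2576 vehicle mice as given above, where 3.09% of all genes were called. Tspan4 (r = -0.56 with Arntl, exact p = 0.0460) and Nampt (-0.49, exact p = 0.172) went against Arntl, and 9 of 10 were positively related to Dbp. None of the 10 temperature-responsive genes was called in any comparison, beside the shares of all genes given above for the further clock genes. Cirbp and Rbm3 had r = 0.57 (exact p = 0.107) and 0.60 (exact p = 0.0306) with Dbp. The chaperones Hspd1 (-0.81, exact p = 0.0207) and Hspe1 (-0.58, exact p = 0.00687) were negative with Dbp, where 0.660% of all genes reached an exact p under 0.01.

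Immediate early genes, which neurons switch on within minutes of activity, had correlations of opposite sign with Arntl and Dbp. All 10 were positively correlated with Arntl, with a median r of 0.47, beside 0.00 over all genes, and all 10 negatively with Dbp, with a median of -0.53, beside -0.01 over all genes. Npas4 had the strongest relation with Arntl (r = 0.75, exact p = 0.00344, adjusted p = 0.999), followed by Ier2 (0.59, exact p = 0.0664) and Egr1 (0.54, exact p = 0.0414). With Arntl 0.430% of all genes reached an exact p under 0.01. With Dbp none of the 10 reached an exact p under 0.01, where 0.660% of all genes did, and the lowest was 0.0791, for Ier2. Arntl and Dbp were themselves at r = -0.49, so the signs with the one are not independent of those with the other. Genes within this list can also vary together, so their shared signs are not separate results. None of the 10 was called between groups. Of all genes, 3.09% and 1.75% were called between genotypes under vehicle and DHA, and 1.38% and 0.353% for DHA in WT and Tg2576 mice. With shares this low, 0 of 10 says little about these genes. Their medians were 0.38 for DHA in WT and -0.39 for DHA in Tg2576 mice, beside -0.01 and 0.00 over all genes.

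Markers of oligodendrocytes, microglia and choroid plexus were negatively correlated with Dbp among mice, but none of them reached an exact p under 0.01 by permutation, where 0.660% of all genes did. All 4 oligodendrocyte markers and all 4 microglial markers had a negative r with Dbp, with medians of -0.58 and -0.52. All 7 choroid plexus markers were negative with a median of -0.21, beside -0.01 over all genes. Markers within a list can vary together, so their shared signs are not separate results. With Arntl the corresponding medians were 0.09, -0.01 and 0.02. Of the microglial markers, 3 of 4 were called higher in Tg2576 than in WT mice under DHA, where 1.75% of all genes were called, led by Csf1r (log2 difference 0.42, SE 0.108, adjusted p = 0.478 by edgeR). The part of cell composition in these correlations with Dbp was not tested.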

How the data were processed

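RNA-seq libraries of 15 mouse hippocampi were analysed from the deposited tables of raw read counts per gene, 1 per mouse. Per the labels, the authors aligned reads with STAR 2.6.1c to GRCm38 and counted them with featureCounts 1.6.0, and per the file headers the counting was unstranded against GENCODE vM25 (reads were checked with FastQC 0.11.8). The study's methods name a stranded mRNA kit, the labels another. Symbols came from a GENCODE table that matched 55141 of 55401 identifiers, and promoters from RefSeq. Genes were filtered with filterByExpr (minimum count 10), scaled by TMM and tested with edgeR 4.0.16 (robust quasi-likelihood, 1 coefficient per group) in R 4.3.3; calls are at unadjusted p under 0.01, the study's threshold, with Benjamini-Hochberg values over all genes tested. The code was tested on simulated counts. Figures and permutation tests used Python 3.11.15. Depth was 17372864 to 46596489 assigned reads. Whether the samples of a group differ in cage or litter is not given, and p-values measure the spread between these samples.

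Relations used log2 CPM (prior count 2) centred on group means. The 10 genes were all named. Of each other list, at most 3 genes with the lowest p over the 4 groups and 3 with the largest absolute r with Arntl were named. So were 5 genes at each end of the relation with Arntl and Dbp, clock genes left out. Cry1, Cry2, Usp2, Fkbp5, Sgk1, Plin4, C1ql2 and the suprachiasmatic markers fall outside this rule and are to be read as chosen after seeing values. The members and lists were chosen with earlier results of these data known. Alternatives were DESeq2 1.42.0, limma-voom (limma 3.58.1), 1 surrogate variable (sva 3.50.0), no TMM factors, 2 other filters, only the groups compared, no robust option, a replicate block, rank correlation, uncentred levels, and leaving out mice. Replicate numbers were not used to pair the mice in the main fits. A result on 1 further gene is not reported here.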

Additional observations from a re-analysis of the deposited data

Results flagged for a closer look

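In 4 of 30 groups of 4 mice, 1 mouse lay far enough from its group for its gap to the next mouse, as a share of the range, to pass Dixon's 95% limit for 4 values, and chance alone passes about 1 group in 20. Per1 in WT vehicle mouse 3 was at 106 CPM, with the next mouse at 98.9 CPM and the lowest at 97.4 CPM (gap 0.836 of the range). Nr1d2 in WT DHA mouse 2 was at 81.6 CPM, above 68.3 and 66.6 CPM (0.888), and in Tg2576 vehicle mouse 1 it was at 71.9 CPM, above 59.4 and 58.1 CPM (0.906). Ciart in WT vehicle mouse 2 was at 8.46 CPM, below the other 3 mice at 9.97 to 10.1 CPM (0.897).

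The DHA difference of Npas2 in Tg2576 minus that in WT mice was -0.51 on the log2 scale (SE 0.144). It was called at an unadjusted p under 0.01 in edgeR's interaction test, where 0.829% of all genes were called. Its adjusted p was 0.845 by edgeR, so a difference between the genotypes was not established.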

How the results depend on the processing

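The count of clock genes called changed with several choices. With 1 surrogate variable, 1 gene (Per1) was called between genotypes under vehicle and 2 (Npas2 and Per1) in each of the genotype comparison under DHA, DHA in WT, the interaction and the 4-group test. The fit on the 2 groups alone called 3 in WT. Leaving out Tg2576 vehicle mice 1 and 2, a choice made after seeing the data, called 2 (Npas2 and Per1) for DHA in WT and 2 among the 4 groups. Leaving out 1 mouse at a time gave 0 to 1 calls between genotypes under DHA (0 without WT DHA mouse 2 or Tg2576 DHA mouse 3, and with mouse 1 left out Clock in place of Npas2), 1 to 2 for DHA in WT (Per1 joins without Tg2576 vehicle mouse 1), 1 to 2 for the interaction (Clock joins without Tg2576 DHA mouse 1), 0 to 0 between genotypes under vehicle and for DHA in Tg2576, and 1 to 1 among the 4 groups.

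Of 1240 single log2 differences under alternatives, 11 changed sign with a move of more than 1 SE from the main value, and 55 changed sign with a move within 1 SE. With 1 mouse left out the range was -0.0145 to 0.42 for Per1 and -0.27 to 0.11 for Dbp (genotypes under vehicle), -0.13 to 0.14 for Nr1d2 and -0.21 to 0.22 for Ciart (genotypes under DHA), and -0.32 to 0.10 for Per1, -0.28 to 0.0877 for Per3, -0.10 to 0.28 for Dbp and -0.28 to 0.21 for Ciart (DHA in Tg2576). Without Tg2576 vehicle mice 1 and 2 Per1 was at -0.18 between genotypes under vehicle and 0.27 for DHA in Tg2576. With 1 surrogate variable the Nr1d2 interaction was -0.0185. The cause was not tested.

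The count of clock genes related to Arntl was 0 to 1 with 1 mouse left out (Nr1d1 without Tg2576 vehicle mouse 3). The count related to Dbp was 0 to 1 with 1 mouse left out (0 without 9 of the 15 mice in turn), and 0 without TMM factors, with Spearman's rank correlation, without the 2 mice farthest from the median, and without Tg2576 vehicle mice 1 and 2. With 1 mouse left out, r with Arntl ranged over -0.36 to 0.27 for Clock, -0.22 to 0.38 for Npas2, -0.48 to 0.16 for Per1 and -0.30 to 0.13 for Per3, and r with Dbp over -0.10 to 0.49 for Clock, -0.19 to 0.43 for Npas2 and -0.27 to 0.78 for Per1. Npas2 with Arntl was -0.20 when levels were not centred; Per3 with Arntl was 0.17 without the 2 mice farthest from the median and 0.0758 without Tg2576 vehicle mice 1 and 2. Npas2 with Dbp was 0.31 uncentred, 0.25 by rank, 0.40 without the 2 farthest mice and 0.51 without Tg2576 vehicle mice 1 and 2.

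Replicate numbers are shared between groups, but only 4 of 21 same-numbered pairs of mice deviated together with r above 0.1 (range -0.24 to 0.21). A correlation over all tested genes cannot show whether such mice shared a cage or a day, so pairing was not decided. With the replicate block no count of clock genes called between groups changed, the count related to Dbp was 0, and Npas2 with Dbp was 0.0733. Depth limits Ciart most, at 175 reads in the mouse with the fewest, and with 3 or 4 mice a group the exact test cannot go below 0.0286.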
